A study of Mus musculus with 10 samples.

Results

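The genes described here are interferon-stimulated genes, which cells switch on when interferon binds its receptor. A list of 39 such genes, most of them antiviral effectors, was taken by gene symbol from the platform annotation of a mouse expression array. A gene was measured where its probe set carried 1 symbol, which held for 37 of the 39, out of 29766 genes tested. Ifi44 was not analysed here, and neither was Ifi27, whose probe set also carries another symbol. The tissue was cochlea, the part of the inner ear that turns sound into nerve signals. The mice were of the strain CBA/CaJ, which loses its hearing late in life, and were sampled at 6 months, while their hearing was still normal. Runners were mice housed alone in a cage with a running wheel (5 arrays), and controls were mice housed alone without a wheel (5 arrays). The 37 genes were compared between runners and controls and between single arrays. No group received interferon, so the name of the list rests on textbook knowledge and not on these arrays. The labels give neither the distance run nor the sex. Since they name no animals, arrays of a group may not be from different mice, and the p-values then cover only array-to-array spread, part of which may be technical.

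Type I interferons bind the receptor made of IFNAR1 and IFNAR2, whose kinases JAK1 and TYK2 then phosphorylate STAT2. With IRF9, STAT2 forms part of the complex ISGF3, which binds interferon-stimulated response elements in the promoters of its target genes. Type II interferon, the product of Ifng, acts through another receptor. Many target genes encode sensors and factors of the same pathway, so the response can amplify itself, and others, such as Usp18, damp it. The inner ear holds resident macrophages, and marrow in the bone around the cochlea holds further immune cells.

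The response element is shown first, because it is the sequence through which ISGF3 induces its targets. Its core was searched as GAAANNGAAA, or TTTCNNTTTC for the other strand, in promoter windows from RefSeq on build GRCm38.p6 that run from 250 bases before to 50 bases after the annotated start. The same letters also fit the sites of single IRF factors, and copies may overlap. A window was given for 27 of the 37 measured genes, and 16 of these, 59.3%, held the motif in at least 1 window. Among all genes tested that had a window the share was 3.86%, or 684 of 17730. Of 24 other interferon-induced genes with a window, 11 held it (45.8%). A match describes letters in a window and does not show that a factor binds there. The 6 windows below were chosen from genes that the results turn on and whose window holds the motif. The capitals mark every match of the motif. Ifit3 at chr19:34583279-34583578 and Ifit1 at chr19:34640639-34640938, on the plus strand, lie near each other on chromosome 19 and hold 2 copies each. Isg15 at chr4:156200769-156201068, on the minus strand, holds 3 overlapping copies, of which the nearest to the start begins at position -66. Gbp2 at chr3:142620413-142620712 and Igtp at chr11:58199306-58199605, on the plus strand, and Rsad2 at chr12:26456403-26456702, on the minus strand, hold 1 copy each.
Ifit3: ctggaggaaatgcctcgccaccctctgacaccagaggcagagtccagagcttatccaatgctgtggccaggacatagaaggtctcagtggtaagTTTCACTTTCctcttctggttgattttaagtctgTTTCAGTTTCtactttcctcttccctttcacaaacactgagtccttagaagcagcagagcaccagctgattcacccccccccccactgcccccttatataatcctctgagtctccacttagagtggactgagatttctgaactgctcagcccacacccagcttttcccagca
Ifit1: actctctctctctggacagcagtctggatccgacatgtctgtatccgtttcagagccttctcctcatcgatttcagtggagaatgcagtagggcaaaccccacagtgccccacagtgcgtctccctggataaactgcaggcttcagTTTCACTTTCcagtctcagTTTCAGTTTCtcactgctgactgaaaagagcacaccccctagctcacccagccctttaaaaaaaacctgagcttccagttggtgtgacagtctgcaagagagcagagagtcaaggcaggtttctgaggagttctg
Isg15: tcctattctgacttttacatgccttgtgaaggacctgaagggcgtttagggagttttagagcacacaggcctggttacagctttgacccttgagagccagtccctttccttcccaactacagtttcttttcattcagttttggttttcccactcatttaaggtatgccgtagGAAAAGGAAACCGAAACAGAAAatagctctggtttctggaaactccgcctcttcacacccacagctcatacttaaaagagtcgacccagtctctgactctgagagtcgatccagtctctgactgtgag
Gbp2: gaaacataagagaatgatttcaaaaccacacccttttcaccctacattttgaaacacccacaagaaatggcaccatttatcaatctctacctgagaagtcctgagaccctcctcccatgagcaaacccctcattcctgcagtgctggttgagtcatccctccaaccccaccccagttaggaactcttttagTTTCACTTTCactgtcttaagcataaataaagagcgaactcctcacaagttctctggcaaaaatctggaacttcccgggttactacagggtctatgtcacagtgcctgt
Igtp: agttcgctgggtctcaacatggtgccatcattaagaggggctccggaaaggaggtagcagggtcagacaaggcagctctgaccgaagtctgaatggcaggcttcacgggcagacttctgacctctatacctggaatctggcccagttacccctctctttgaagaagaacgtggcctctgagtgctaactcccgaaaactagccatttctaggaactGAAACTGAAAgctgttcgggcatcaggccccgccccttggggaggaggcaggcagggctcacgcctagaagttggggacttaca
Rsad2: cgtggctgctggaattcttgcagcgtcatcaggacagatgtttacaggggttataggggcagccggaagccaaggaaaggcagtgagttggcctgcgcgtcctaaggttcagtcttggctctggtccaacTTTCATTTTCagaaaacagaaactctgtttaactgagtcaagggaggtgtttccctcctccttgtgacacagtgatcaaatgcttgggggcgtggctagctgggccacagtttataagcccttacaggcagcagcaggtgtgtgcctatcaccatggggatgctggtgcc
In Igtp the copy begins at position -34 from the start, in Gbp2 at -59 and in Rsad2 at -120. Ifit2, a neighbour of Ifit1 and Ifit3, had windows without a match. So did Irf7, Irf9, Oasl1, Oasl2, Trim25, Dtx3l, Cmpk2, Samd9l, Ifi35 and Xaf1. A window without a match does not show that the gene lacks a response element, which may lie outside it or differ in letters.

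All values are log2 expression from RMA, which corrects background, equalizes the arrays' distributions and summarizes the probes of a gene. A difference is runner minus control on this log2 scale, with the standard error (SE) of limma, and 1 unit is a doubling. Array medians over all genes lay between 5.35 and 5.43. Pearson correlations across genes were 0.991 to 0.997 within runners, 0.995 to 0.997 within controls and 0.992 to 0.996 between groups, so no pair of arrays was identical. Markers of other tissues were measured clearly, with Gabra6 of cerebellum at 10.7, Alas2 of red cell precursors at 9.67 and Ly6g of neutrophils at 9.03 over all arrays. The hair cell markers averaged 5.34 to 5.69 per array in runners and 5.55 to 5.72 in controls. In bulk tissue such as this fewer cells of a type and less RNA per cell cannot be told apart. Runner 1 stood apart, since without it 55 genes were lower and 44 higher at an adjusted p under 0.05 over all genes, against 2 and 0 with it, and leaving out any other array gave at most 3 calls.

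No interferon-stimulated gene passed the test between runners and controls. Of the 37 genes, 29 had a difference below 0 and 8 above 0, while 49.5% of all genes tested lay below 0. After repeated quantile normalization, and likewise after median centring, 26 of the 37 were below 0. The median difference was -0.10, against 0.0009 over all genes, and the differences ran from -0.24 for Igtp to 0.09 for Oas2. With limma and Benjamini-Hochberg adjustment over all genes, the adjusted p of the 37 genes lay between 0.696 and 0.997, and 0.00672% of all genes passed an adjusted p of 0.05. At an unadjusted p under 0.05, 1 of the 37 genes was lower in runners, Igtp, against 3.92% of all genes. None of the 37 was higher in runners at that threshold, against 3.21% of all genes. No gene had all runners below all controls, a pattern that 0.548% of all genes showed. The size of the difference exceeded the pooled standard deviation (SD) within groups in 7 genes, namely Igtp, Trim25, Eif2ak2, Parp14, Dtx3l, Cmpk2 and Ifi35. Over all genes 19.1% did so, so the share in the list was near that of all genes. Which genes reached an unadjusted p under 0.05 depended on single arrays. Without runner 5 there were 9 genes (Rtp4, Gbp3, Igtp, Eif2ak2, Irgm1, Oas1a, Ifi35, Xaf1 and Ifit2), and 3.58% of all genes were lower at that threshold. Runner 5 was the highest runner for each of these except Igtp, so leaving it out lowers their runner mean by construction. Without runner 1 there were 8 (Rsad2, Trim25, Samd9l, Dtx3l, Igtp, Parp14, Eif2ak2 and Ifi35), and 8.59% of all genes were lower at that threshold. Runner 1 was likewise the highest runner for each of these except Eif2ak2 and Ifi35. Without runner 1 and control 1 together, Rsad2 was the only one of the 37 to pass the adjusted threshold (difference -0.47, limma adjusted p = 0.0381). For Rsad2 runner 1 was the highest runner and control 1 the lowest control, so leaving both out widens its difference by construction. In that fit 1.43% of all genes passed, 292 lower and 134 higher, and 1 gene of 37 is too few to set against that share.

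**Figure D1:**
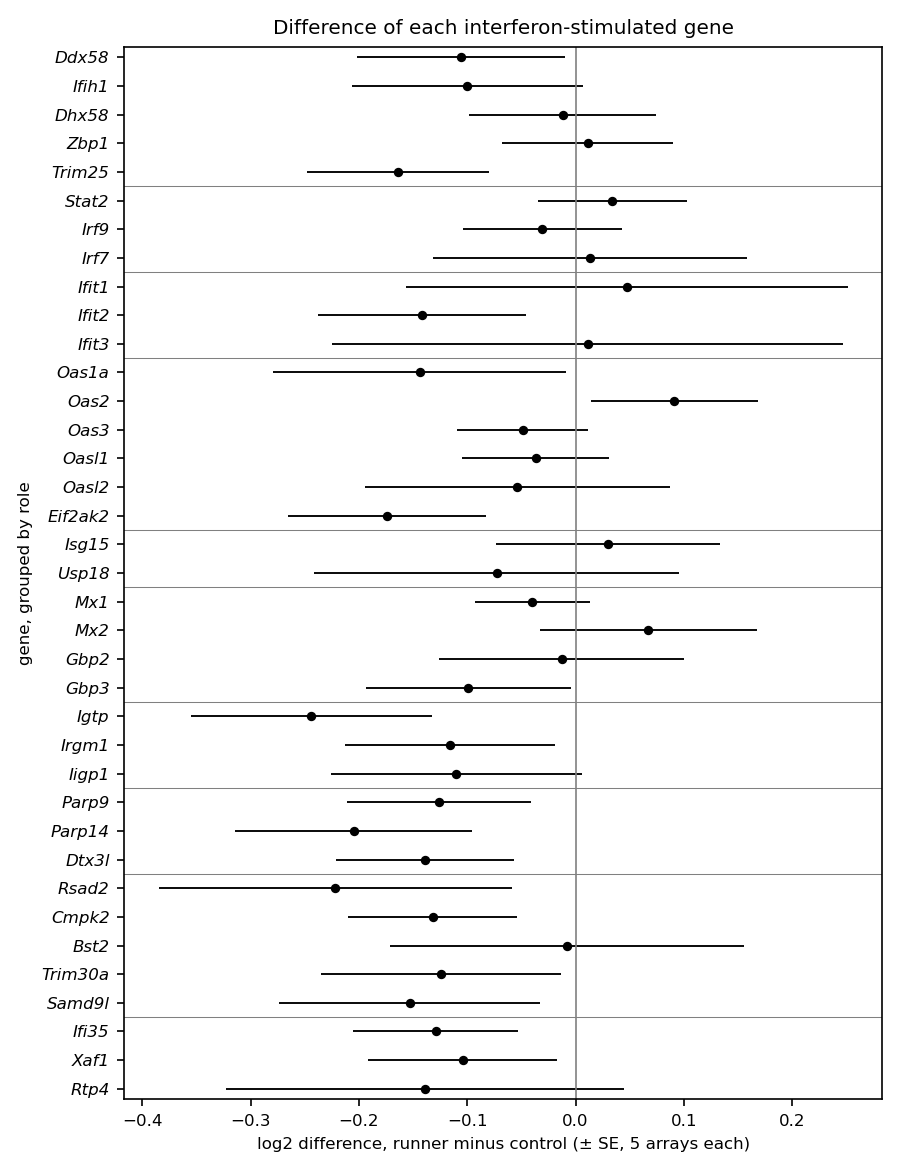
Log2 difference, runner minus control, with its limma standard error for each of the 37 interferon-stimulated genes, ordered by role, from 5 runner and 5 control arrays. The differences lie between -0.24 and 0.09, and 29 of the 37 are below 0, or 26 after repeated quantile normalization or median centring.

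Values of these genes varied more among runners than among controls. The SD was larger in runners than in controls for 35 of the 37 genes, the exceptions being Oasl1 and Trim30a, while 67.6% of all genes had the larger SD in runners. The median SD of the 37 genes was 0.23 in runners and 0.11 in controls, against 0.13 in runners and 0.10 in controls over all genes. The median range from lowest to highest array was 0.55 in runners and 0.26 in controls. Runner 5 was the highest of the 10 arrays for 21 of the 37 genes, against 11.2% of all genes. Runner 1 was the highest for 3 genes (Rsad2, Samd9l and Dtx3l), against 18.8% of all genes. Runner 2, 3 or 4 was the lowest array for 32 genes, against 45.7% of all genes. These arrays were singled out after their values were seen, so the counts describe the arrays and carry no test. The mean of the 37 genes per array was 5.68, 5.44, 5.41, 5.36 and 5.82 in runners 1 to 5, against 5.50, 5.63, 5.70, 5.63 and 5.64 in controls 1 to 5. Runners 2 to 4 therefore lay below every control, runner 5 above every control, and runner 1 within the controls' range. The means were 5.54 ± 0.20 in runners and 5.62 ± 0.08 in controls (SD, n = 5 each).

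**Figure D2:**
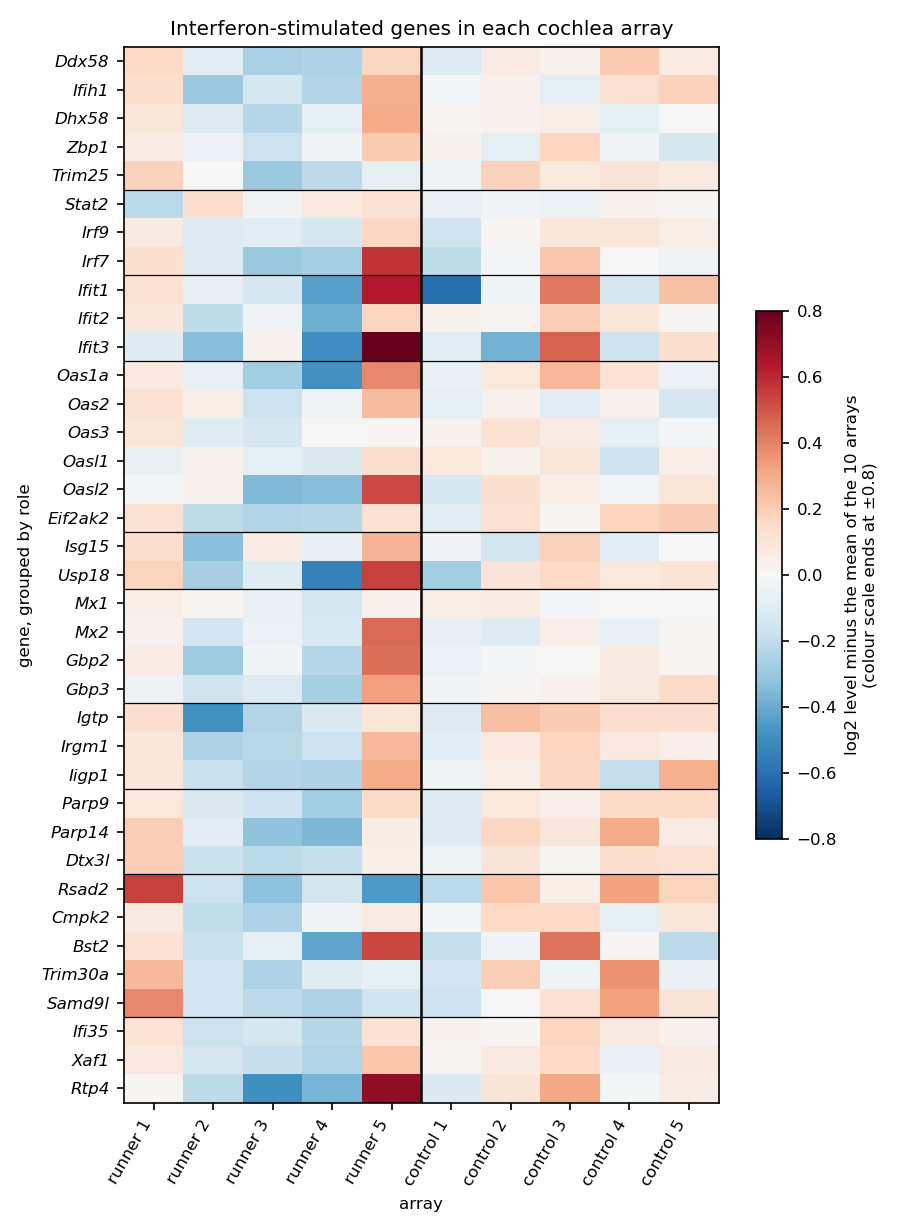
Log2 value of each of the 37 interferon-stimulated genes in each array minus that gene's mean over the 10 arrays, with colours ending at 0.8 in either direction, with runners 1 to 5 left of controls 1 to 5 and genes grouped by role. Runner 5 holds the highest value of 21 genes, and runners 2 to 4 hold the lowest value of 32.

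**Figure D3:**
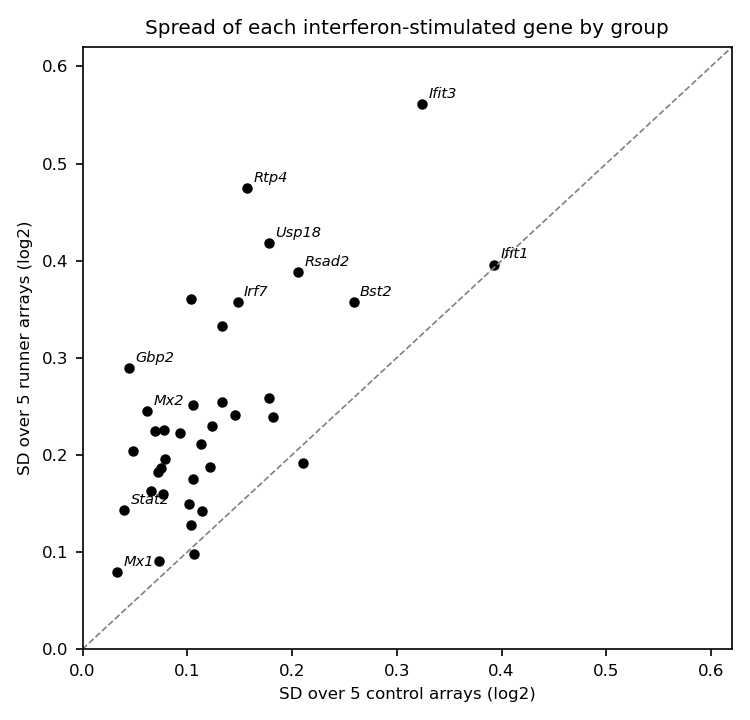
Standard deviation of each of the 37 interferon-stimulated genes over 5 runner arrays (vertical axis) and over 5 control arrays (horizontal axis), on the log2 scale, with a dashed line where the 2 are equal. The value in runners is the larger one for 35 genes, and Ifit3 has the largest in runners at 0.56.

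Sensors of viral RNA and DNA and their partners act first in the pathway. All 5 were measured (Ddx58, the RNA sensor RIG-I, Ifih1, the RNA sensor MDA5, Dhx58, their relative LGP2, Zbp1, a sensor of Z-form nucleic acid, and Trim25, a ubiquitin ligase that helps activate RIG-I). Their median difference was -0.10, and 4 of 5 were below 0 (3 of 5 after either of these rescalings). Trim25 stood at 6.55, 6.36, 6.07, 6.15 and 6.28 in runners 1 to 5, against 6.34, 6.55, 6.44, 6.47 and 6.43 in controls 1 to 5. Runners 3, 4 and 5 lay below every control for Trim25, whereas runner 1 was level with the highest control. The difference was -0.16 ± 0.084 with a limma adjusted p of 0.718, the smallest among the sensors. Dhx58 (-0.012 ± 0.087) and Zbp1 (0.011 ± 0.078) differed by less than their SE.

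The transcription factors Stat2 and Irf9, subunits of ISGF3, and Irf7, which drives the interferon alpha genes, had differences of 0.03 ± 0.069, -0.03 ± 0.073 and 0.013 ± 0.14. Stat2 stood at 7.38, 7.73, 7.57, 7.67 and 7.71 in runners 1 to 5, against 7.54, 7.57, 7.55, 7.62 and 7.61 in controls 1 to 5. Stat2 was the only gene of the 37 whose highest array was runner 2 and whose lowest was runner 1. Irf9 stood at 6.30, 6.12, 6.14, 6.09 and 6.39 in runners 1 to 5, against 6.06, 6.23, 6.31, 6.31 and 6.27 in controls 1 to 5. The groups overlapped, with runner 5 highest and control 1 lowest for Irf9. Irf7 stood at 6.15, 5.92, 5.73, 5.76 and 6.59 in runners 1 to 5, against 5.82, 6.01, 6.24, 6.02 and 5.99 in controls 1 to 5. Runner 5 was the highest array for Irf7 and runner 3 the lowest, so the runners enclosed all 5 controls.

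The IFIT proteins bind viral RNA, and interferon induces their genes strongly in many cells. Ifit3 stood at 5.78, 5.54, 5.91, 5.38 and 6.82 in runners 1 to 5, against 5.80, 5.50, 6.35, 5.71 and 6.01 in controls 1 to 5. Runner 5 was 1.17 above the mean of the other runners and above every control, while the other 4 runners lay within or below the controls' range. Ifit3 differed by 0.011 ± 0.24 between the groups, the largest SE of the list. Ifit1 stood at 5.97, 5.79, 5.72, 5.42 and 6.49 in runners 1 to 5, against 5.25, 5.82, 6.28, 5.72 and 6.09 in controls 1 to 5. It spread as widely in controls (SD 0.39) as in runners (SD 0.40), with runner 5 highest and control 1 lowest. The difference of Ifit1 was 0.05 ± 0.2. Ifit2 gave -0.14 ± 0.096, and its 5 controls spanned less (SD 0.08) than its 5 runners (SD 0.23). Ifit3b, a near-identical copy of Ifit3 named here after its values were seen, was also highest in runner 5 at 6.999. Probes may not separate the copies, so Ifit3 and Ifit3b are uncertain as separate signals.

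The OAS family makes a messenger that activates RNase L on viral RNA, and Eif2ak2, which encodes PKR, halts translation. Of these 6 genes 5 were below 0, with a median difference of -0.05. Eif2ak2 stood at 6.49, 6.17, 6.14, 6.15 and 6.50 in runners 1 to 5, against 6.29, 6.50, 6.39, 6.56 and 6.58 in controls 1 to 5. Runners 2 to 4 lay below all controls for Eif2ak2, and its difference was -0.17 ± 0.091 with a limma adjusted p of 0.729. Oas2 had the difference farthest above 0 in the list (0.09 ± 0.077). Oas1a gave -0.14 ± 0.14 and Oasl2 -0.05 ± 0.14, and in each of them runner 5 was the highest array. Oas1a and its close relative Oas1g are uncertain as separate signals. Oas3 (-0.05 ± 0.06) and Oasl1 (-0.04 ± 0.067) complete the family.

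Isg15 encodes a ubiquitin-like protein that is attached to other proteins during the response, and Usp18 encodes the protease that removes it and also restrains the receptor. Isg15 stood at 3.75, 3.28, 3.68, 3.55 and 3.89 in runners 1 to 5, against 3.59, 3.47, 3.80, 3.53 and 3.62 in controls 1 to 5. Runner 5 was highest for Isg15 and runner 2 lowest, with the controls between them, and the difference was 0.03 ± 0.1. Usp18 stood at 6.33, 5.88, 6.05, 5.61 and 6.70 in runners 1 to 5, against 5.87, 6.26, 6.31, 6.24 and 6.26 in controls 1 to 5. Runner 4 lay below every control for Usp18 and runners 1 and 5 above every control, and its difference was -0.07 ± 0.17.

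Mx1 and Mx2 are genes of the dynamin-like GTPase family, known for blocking viral replication. Whether working Mx proteins are made in this strain was not tested. Gbp2 and Gbp3 encode guanylate-binding proteins that act on vacuoles of intracellular microbes. Mx1 stood at 3.71, 3.68, 3.60, 3.52 and 3.69 in runners 1 to 5, against 3.71, 3.72, 3.65, 3.66 and 3.66 in controls 1 to 5. Mx1 had the smallest spread of the list in both groups, with a difference of -0.04 ± 0.053. Its mean over all arrays was 3.66, the lowest of the list after Isg15 (3.62), against a median of 5.40 over all genes. Mx2 (0.07 ± 0.1), Gbp2 (-0.013 ± 0.11) and Gbp3 (-0.10 ± 0.095) each peaked in runner 5. Gbp2 varied little among controls (SD 0.04) and more among runners (SD 0.29).

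The immunity-related GTPases, which are known in mice for the control of intracellular microbes, were all below 0 in runners minus controls. Igtp, the gene of IRGM3, stood at 7.28, 6.66, 6.91, 7.03 and 7.24 in runners 1 to 5, against 7.04, 7.39, 7.34, 7.28 and 7.27 in controls 1 to 5. Runners 2 to 4 lay below every control for Igtp, while runners 1 and 5 lay within the controls' range. Igtp differed by -0.24 ± 0.11, 1.18-fold, with an unadjusted p of 0.048 and a limma adjusted p of 0.696. Irgm1, a regulator of this family, gave -0.12 ± 0.097, and Iigp1, an effector of it, gave -0.11 ± 0.12.

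Parp9 and Dtx3l encode partners in a complex that modifies histones, and Parp14 encodes a related ADP-ribosyltransferase. Parp14 stood at 5.95, 5.67, 5.43, 5.39 and 5.81 in runners 1 to 5, against 5.65, 5.92, 5.84, 6.05 and 5.82 in controls 1 to 5. Its difference was -0.21 ± 0.11 with a limma adjusted p of 0.729, and the groups overlapped. Dtx3l stood at 6.46, 6.09, 6.05, 6.08 and 6.31 in runners 1 to 5, against 6.23, 6.37, 6.29, 6.40 and 6.39 in controls 1 to 5. Runners 2 to 4 lay below all controls for Dtx3l, and runner 1 lay above all of them, with a difference of -0.14 ± 0.082. Parp9 stood at 5.65, 5.45, 5.40, 5.29 and 5.71 in runners 1 to 5, against 5.46, 5.65, 5.60, 5.71 and 5.72 in controls 1 to 5. The difference of Parp9 was -0.13 ± 0.085, in the same direction as that of its partner Dtx3l, and the groups again overlapped.

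Among the other antiviral effectors, Rsad2, which encodes viperin, went against the common order of the runners. Rsad2 stood at 7.84, 7.13, 6.97, 7.15 and 6.84 in runners 1 to 5, against 7.08, 7.52, 7.35, 7.62 and 7.48 in controls 1 to 5. Runner 1 was the highest of all arrays and runner 5 the lowest, whereas runner 5 was the highest for most of the list. Its difference was -0.22 ± 0.16 (limma adjusted p = 0.790), with values of -0.39 without runner 1 (adjusted p = 0.111) and -0.14 without runner 5. Samd9l, a gene that restricts viruses and growth signals, stood at 7.09, 6.56, 6.50, 6.46 and 6.55 in runners 1 to 5, against 6.54, 6.72, 6.83, 7.03 and 6.82 in controls 1 to 5. Samd9l also peaked in runner 1, above every other array, and differed by -0.15 ± 0.12. Cmpk2, the nucleotide kinase gene that neighbours Rsad2, stood at 6.50, 6.23, 6.18, 6.40 and 6.49 in runners 1 to 5, against 6.42, 6.58, 6.58, 6.36 and 6.52 in controls 1 to 5. Its difference was -0.13 ± 0.078, and runners 2 and 3 lay below every control while no runner lay above the highest one. Bst2, which encodes tetherin, stood at 6.51, 6.22, 6.33, 5.98 and 6.93 in runners 1 to 5, against 6.21, 6.37, 6.83, 6.41 and 6.19 in controls 1 to 5. Bst2 spread widely in both groups (SD 0.36 in runners and 0.26 in controls) around a difference of -0.008 ± 0.16. Trim30a, a regulator of inflammatory signalling, gave -0.12 ± 0.11.

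The remaining genes have less defined roles. Rtp4 encodes a receptor transporter that is induced by interferon, and it stood at 4.92, 4.70, 4.41, 4.53 and 5.61 in runners 1 to 5, against 4.79, 5.01, 5.21, 4.90 and 4.96 in controls 1 to 5. Runners 2 to 4 lay below every control for Rtp4 and runner 5 above every control, a pattern whose group difference of -0.14 ± 0.18 was smaller than its SD in runners (0.47). Ifi35, which encodes a partner of the interferon-induced protein NMI, stood at 5.89, 5.61, 5.64, 5.56 and 5.90 in runners 1 to 5, against 5.81, 5.80, 5.96, 5.85 and 5.82 in controls 1 to 5. Its difference was -0.13 ± 0.076, and runners 2 to 4 lay below the controls. Xaf1, a gene of cell death signalling, gave -0.10 ± 0.087.

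**Figure D4:**
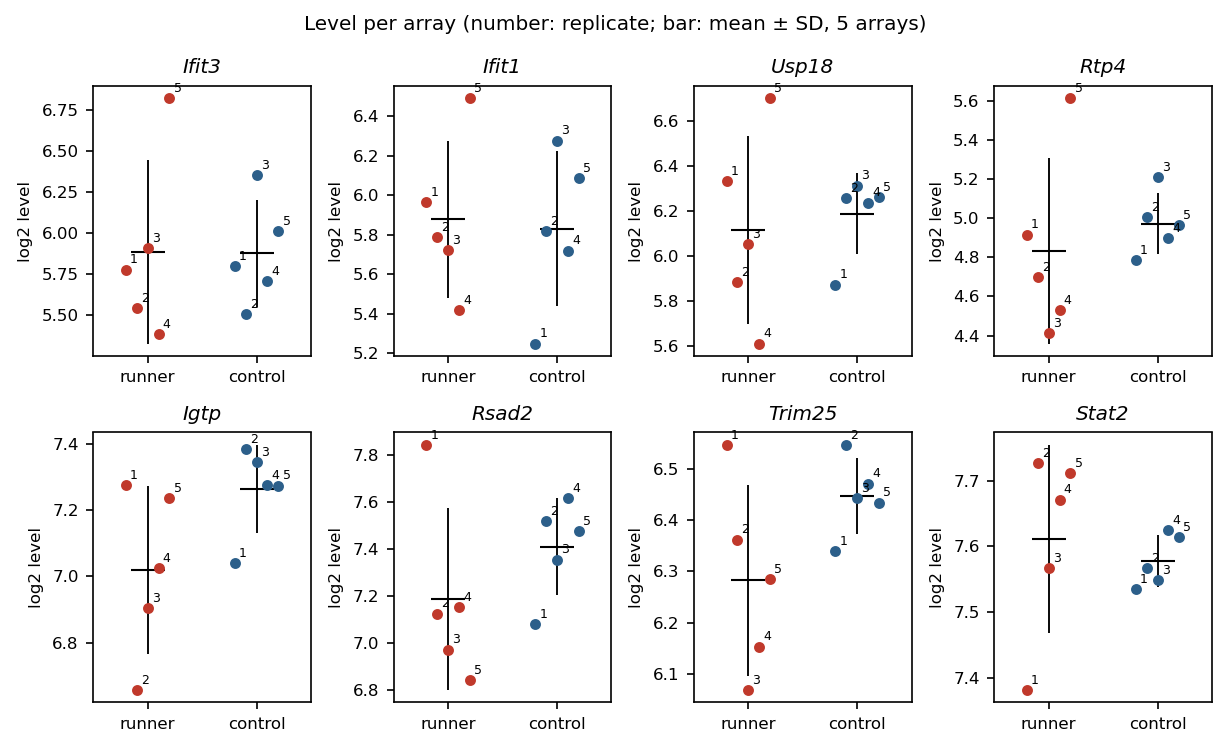
Log2 value in each array of 8 named interferon-stimulated genes, runners left of controls, with points numbered by replicate and bars for the mean ± SD of 5 arrays. The axes do not start at 0 and differ between genes. In Ifit3 and Rtp4 runner 5 is the top point, and in Rsad2 runner 1 is the top point and runner 5 the bottom one.

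Runners 1 and 5 were the high runners for most of the list. Runner 5 lay above each of runners 2 to 4 in 33 of the 37 genes, against 31.6% of all genes, and runner 1 did so in 33 of 37, against 40.6% of all genes. Both lay above runners 2 to 4 in 30 of 37, against 18.9% of all genes. Runners 1 and 5 were set apart from runners 2 to 4 after the values of these same genes were seen. High counts for this split are therefore partly built in, and the counts of this paragraph describe the arrays and carry no test. Runner 5 lay above the highest control in 22 of the 37 genes, against 24.7% of all genes. Runner 1 did so in 6 of 37, against 26.3% of all genes. At least 3 runners lay below the lowest control in 14 of 37, against 12.4% of all genes.

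Genes that send, receive and pass on the interferon signal were read from a list of 77 other pathway genes, of which 69 were measured. Of the 69, 54 had a difference below 0 (49.5% of all genes did) and 15 above it. The median over the 69 was -0.09, and 55 were below 0 after repeated quantile normalization and 47 after median centring. At an unadjusted p under 0.05, 8 of the 69 were lower in runners, against 3.92% of all genes, and 0 were higher, against 3.21%. With limma, 0 of the 69 passed the adjusted threshold. Without runner 1 and control 1 together, 2 of the 69 passed it, Ifi209 and Ptpn6, against 1.43% of all genes. In both genes, as in Rsad2, runner 1 was the highest runner and control 1 the lowest control, so that fit widens their differences by construction. Of the 10 interferon genes, 8 were below 0 (9 after repeated quantile normalization and 5 after median centring), with Ifna1 at -0.24 ± 0.088. These 10 genes were dim, with a median level of 3.81 against 5.40 over all genes. Their values therefore do not establish that the interferon genes were expressed. Ifnk (-0.13 ± 0.083), Ifnb1 (-0.019 ± 0.076) and Ifng (-0.02 ± 0.053) overlapped between the groups. All 6 receptor chains were below 0, with 6 after repeated quantile normalization and 5 after median centring. Ifngr2, a chain of the type II receptor, stood at 7.38, 7.17, 7.15, 7.10 and 7.21 in runners 1 to 5, against 7.28, 7.38, 7.37, 7.44 and 7.30 in controls 1 to 5. Runners 2 to 5 lay below every control for Ifngr2, and its difference was -0.15 ± 0.062 with a limma adjusted p of 0.646. The type I receptor chains Ifnar1 (-0.11 ± 0.059) and Ifnar2 (-0.11 ± 0.07) likewise had runners 2 to 5 below every control. The kinase genes Jak2 (0.05 ± 0.063) and Tyk2 (-0.07 ± 0.053) lay on opposite sides of 0.

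Of the 5 other IRF genes 4 were below 0, with 4 after repeated quantile normalization and 3 after median centring. Irf1, a factor of the type II response, stood at 6.37, 5.89, 5.98, 5.84 and 6.13 in runners 1 to 5, against 6.13, 6.21, 6.15, 6.21 and 6.19 in controls 1 to 5. Runner 1 was the highest array for Irf1 and the other 4 runners lay below every control. Its difference was -0.14 ± 0.089, and that of Irf8, a factor of macrophages and dendritic cells, was -0.19 ± 0.091. In upstream sensing 9 of 10 genes were below 0 (9 after repeated quantile normalization and 7 after median centring). They were led by Sting1 (-0.23 ± 0.12), the adaptor of the DNA sensor cGAS, and Tlr3 (-0.19 ± 0.095), a sensor of double-stranded RNA. Of the 6 negative regulators 4 were above 0, and Ptpn2 (0.07 ± 0.069) and Ptpn6 (-0.23 ± 0.11) had the smallest p among them. Without runner 1 and control 1 together, Ptpn6 gave -0.38 (limma adjusted p = 0.0383).

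Of 29 other interferon-induced genes 24 were below 0, against 49.5% of all genes. Of these, 5 were lower at an unadjusted p under 0.05, against 3.92% of all genes. Ifi209, a gene of the p200 family of nucleic acid sensors, stood at 5.80, 5.54, 5.26, 5.48 and 4.91 in runners 1 to 5, against 5.61, 6.17, 5.89, 6.40 and 6.16 in controls 1 to 5. Its difference was -0.65 ± 0.17, 1.57-fold, with an unadjusted p of 0.00198 and a limma adjusted p of 0.514. Without runner 1 and control 1 together, it was -0.86 (limma adjusted p = 0.0325). Runners 2 to 5 lay below every control for Ifi209 and runner 5 was the lowest array, as for Rsad2. Psmb8, a subunit gene of the immunoproteasome, differed by -0.24 ± 0.084 (limma adjusted p = 0.607), and its controls lay within 0.12 of each other.

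Markers of several cell types and tissues, immune and not, moved with some of these values. All 8 macrophage markers (Csf1r averaged 7.19 over all arrays) had a difference below 0, 4 of them at an unadjusted p under 0.05. Of all genes 3.92% were lower at that threshold. The mean of the macrophage markers per array was 6.85, 6.49, 6.45, 6.46 and 6.45 in runners 1 to 5, and 6.65 to 6.81 in controls. Runner 1 was thus above runners 2 to 4 in the mean of the macrophage markers and in that of the interferon-stimulated genes, and runners 2 to 4 were below every control in both. Runner 5 had macrophage markers at the level of runners 2 to 4 and the highest mean of the interferon-stimulated genes. All 7 B lineage markers were below 0, each at an unadjusted p under 0.05, with means of 5.80 to 6.32 per array in runners and 6.31 to 6.71 in controls, and runner 5 at 5.87. All 8 neutrophil markers were below 0, 2 of them at that threshold, with means of 8.94 to 9.42 in runners and 9.02 to 9.42 in controls. Plasmacytoid dendritic cells, known for their large output of type I interferon, had marker means of 6.21 to 6.38 in runners and 6.19 to 6.40 in controls, with Siglech at 5.63 over all arrays. These near-equal means hold markers that differed in both directions, from -0.57 to 0.67, with 1 above and 2 below 0 at that threshold. In all, 4 of 8 were below 0 (4 after repeated quantile normalization and 3 after median centring). Of 8 T and NK cell markers 6 were above 0, with means of 4.61 to 4.90 in runners and 4.52 to 4.74 in controls. At that threshold 1 of them was higher in runners, against 3.21% of all genes, and 0 were lower. Of the stria vascularis, the cochlear tissue that secretes endolymph, 7 of 8 markers were below 0, 4 at that threshold. The stria means were 7.15, 6.97, 6.72, 6.71 and 6.84 in runners 1 to 5, against 6.98 to 7.16 in controls, so that runner 1 was again the high runner and runners 2 to 5 lay below every control. Hair cell markers were below 0 in 7 of 8 (2 at that threshold), endothelial markers in 7 of 7 (0) and erythroid markers in 6 of 6 (2). Skeletal muscle markers were below 0 in 6 of 8 (0), with means of 8.09 to 9.12 in runners and 8.11 to 8.89 in controls. Their mean was highest in runner 3 and lowest in runner 2, so runner 1 was not the high runner there. Brain markers were above 0 in 6 of 7, or 7 of 7 after either rescaling, and their mean was lowest in runner 1, with 8.23 to 8.76 in runners and 8.34 to 8.55 in controls. The part of these cell types and tissues in the differences of the interferon-stimulated genes was not tested.

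**Figure D5:**
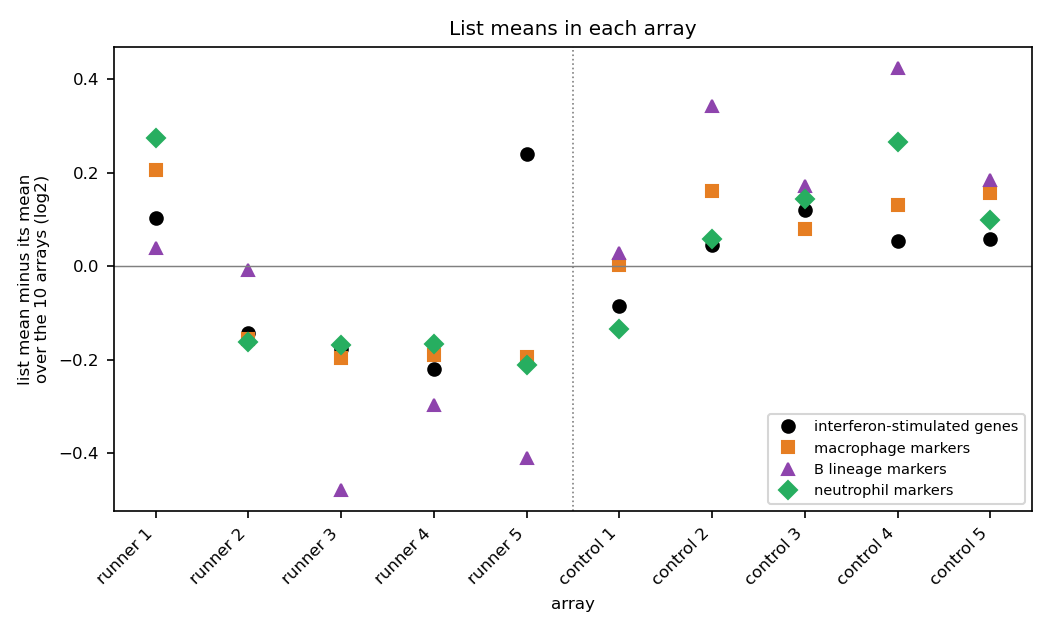
Mean log2 value of the 37 interferon-stimulated genes and of the macrophage, B lineage and neutrophil markers in each array, each list minus its own mean over the 10 arrays, runners left of controls. Runner 5 has the highest mean of the interferon-stimulated genes (5.82 before the subtraction), while its macrophage mean (6.45) lies below all controls.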

How the data were processed

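Total RNA from frozen, ground inner ear tissue was labelled with biotin (Affymetrix WT PLUS kit), 1 array per sample, per the labels' protocols. The values are log2 expression per probe set as deposited by the authors. The submitters' processing notes name RMA and Partek with no version. Chip, build and filters: not given in the sources used here. RMA understates differences of dim genes, and quantile normalization hides a change shared by most genes. The number of arrays limits the precision.

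The value table held 39295 probe sets. The platform annotation gave 1 symbol for 30130 of them, several for 2146 and none for 7019. For 827 the symbol was updated through RefSeq. Of several probe sets for a gene (294 genes, none of the list) the one with the highest mean was used, which left 29766 genes. A model with a single group term was fitted to all of them by lmFit and eBayes of limma 3.58.1 (R 4.3.3). Tests were two-sided, with Benjamini-Hochberg adjustment over all genes and thresholds of 0.05. The fit was tested on simulated data. A fold is 2 raised to the absolute log2 difference. Promoter windows were searched in Python 3.11.15 and figures drawn with matplotlib 3.10.9.

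The members and lists were chosen with earlier results of these data known, so no list has a test. Per-array values were given for the 8 genes with the smallest p, the 6 with the largest SD, the 4 with the highest and 2 with the lowest mean, for Stat2, Irf9, Irf7, Isg15, Ifit1 and Usp18, and for single pathway genes. Of each other pathway list the 2 genes with the smallest p were named, with Irf1, Ifnar1, Ifnar2, Ifnb1 and Ifng. Alternatives were a filter on dim genes, other moderation, array weights, median centring, repeated quantile normalization, averaging a gene's probe sets, a replicate block and each array left out.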

Additional observations from a re-analysis of the deposited data

Results flagged for a closer look

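A lone array in a group of 5, whose gap to the next array exceeded Dixon's critical share of the group's range (0.71), was found in 4 of 110 groups tested, and chance gives about 1 in 20. Samd9l was at 7.092 in runner 1, with the next runner at 6.558 (ratio 0.847). Usp18 was at 5.873 in control 1, below the next control at 6.236 (ratio 0.827). Psmb8 was at 6.001 in control 5, with the next control at 6.089 (ratio 0.75). Oasl1 was at 4.852 in control 4, with the next control at 5.043 (ratio 0.741). Ifit3 in runner 5 did not exceed it.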

How the results depend on the processing

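No gene of the list passed the adjusted threshold under any alternative except 1, Rsad2, without runner 1 and control 1 together. The median difference stayed below 0 under every alternative, between -0.164 (without runner 5) and -0.055 (without runner 4). Genes of the list lower at an unadjusted p under 0.05 numbered 1 as reported, against 3.92% of all genes. They numbered 0 with the dim filter (5.19% of all genes), without moderation (3.71%), with median centring (2.83%) and with the replicate block (3.44%). With array weights there were 6 (7.1%), and without runner 1 and control 1 there were 10 (9.07%). With each array left out there were 0 to 9 (9 without runner 5, the highest runner for most of them, and 3.58% of all genes). The share of all genes then ran from 2.57% without control 2 to 8.59% without runner 1. With the dim filter 22 of the 37 genes were left, 18 below 0 and 22 with the larger SD in runners. With each array left out, 24 (without runner 4) to 35 (without runner 5) of 37 were below 0. The SD was larger in runners for 30 (without runner 5, where 66.9% of all genes were) to 37 genes, 34 after repeated quantile normalization and 33 after centring. These SD alternatives were chosen after seeing the data. Over all genes, 2 were lower as reported, 1 without moderation, 10 with weights, 292 without runner 1 and control 1, and 2 to 55 with each array left out. Higher were 0 as reported, 5 with weights, 134 without runner 1 and control 1, and 0 to 44 with each array left out.

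Differences near 0 turned sign. Bst2 was 0.011 after repeated quantile normalization, 0.016 after centring and 0.075 with weights. Dhx58 was 0.011, 0.011 and 0.002 in the same order, and Gbp2 0.014, 0.011 and 0.036. Centring, which moved the median of all genes to 0.0243, gave 0.005 for Ifnb1 and 0.002 for Ifng. Without runner 1 and control 1, Ifit1 was -0.12, Irf7 -0.066, Isg15 -0.003 and Ifnb1 0.005. With each array left out, the ranges were -0.142 to 0.1 for Bst2, -0.087 to 0.044 for Dhx58, -0.125 to 0.056 for Gbp2, -0.106 to 0.162 for Ifit1, -0.223 to 0.136 for Ifit3, -0.128 to 0.088 for Irf7, -0.035 to 0.116 for Isg15, -0.038 to 0.113 for Mx2, -0.193 to 0.027 for Oasl2, -0.219 to 0.053 for Usp18, -0.04 to 0.055 for Zbp1 and -0.078 to 0.026 for Ifnb1. The cause was not tested.

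Runners and controls share replicate numbers. Same-numbered arrays deviated together in 1 of 5 pairs (correlations of -0.25 to 0.277, against a bar of 0.1), so the numbers were not read as pairs, and the replicate block changed no adjusted call of the list.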
